A study of Mus musculus with 12 samples.

Results

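The BCL2 family balance was described here by 5 genes, *Bcl2*, *Bcl2l1*, *Bax*, *Bad* and *Bid*, which were taken by name from the 770 genes of a NanoString® Mouse PanCancer Pathways panel. The panel counts single RNA molecules with a barcoded probe for each gene. It was run on 12 samples from 4 groups, with 3 biological replicates in each group. The AKT/NRAS cells are a mouse line of hepatocellular carcinoma from a tumour raised by hydrodynamic tail vein injection of myristoylated AKT, flanked by flox sites, and an oncogenic NRAS mutant. AKT Cre/NRAS, which the sample labels spell AKT/NRAS Cre, is the same line after transfected Cre recombinase had removed the AKT construct, so that all 4 groups carried the NRAS construct. Each line received a pool of siRNA against *Dusp4*, a nuclear phosphatase that inactivates ERK, or a negative control pool called SCR. Each genotype is thus represented by a single cell line, one derived from the other, and the comparison of the lines holds everything that differs between them, including the passage through Cre transfection.

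The BCL2 family decides at the outer mitochondrial membrane whether a cell enters intrinsic apoptosis. BCL2 and BCL-XL, the product of *Bcl2l1*, hold the effector BAX in check, and BAX that escapes them opens pores that release cytochrome c and activate caspases. BH3-only proteins such as BAD and BID bind these partners and tip the balance towards death, with BAD kept inactive by phosphorylation through AKT and other kinases, and BID activated by caspase cleavage below death receptors. Hepatocytes depend on BCL-XL for survival, and in the liver BID links the death receptor FAS to the mitochondria. The panel measured transcripts, so phosphorylation and cleavage were outside its reach.

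All 5 genes stood above the deposited floor of 20 in all 12 samples. Values are given as normalized counts, which are the deposited values divided by a factor per sample from 15 reference genes. A gene was called changed when its limma p, adjusted with Benjamini-Hochberg over all genes tested in a comparison, was under 0.05. Recovered counts ranged from 646 to 2451 for *Bcl2l1*, from 656 to 1460 for *Bax*, from 658 to 1357 for *Bid*, from 420 to 676 for *Bad* and only from 23 to 93 for *Bcl2*. The highest negative control of any sample held 20 counts. These are bulk samples, in which fewer cells of a kind and less RNA per cell cannot be told apart. Levels were compared between samples only, because probes for different genes differ in efficiency.

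The labels were first checked on the targeted genes. *Dusp4* fell by 1.73 on the log2 scale in AKT/NRAS after its siRNA (SE 0.052, limma adjusted p = 1.1e-06), from 1228 ± 43.8 to 370 ± 19.7 normalized counts (SD, n = 3). In AKT Cre/NRAS it fell by 0.45 (SE 0.125, limma adjusted p = 0.0178), from 5556 ± 963 to 4023 ± 221 normalized counts. That fall is for the reported scaling, and *Dusp4* under other scalings is not given here. A change of the factors moves all genes above the floor alike. The panel median of this comparison ran from -0.098 to 0.67 with the scaling. *Akt1* stood at 19831 ± 507 normalized counts in AKT/NRAS SCR and at 388 ± 47.9 in AKT Cre/NRAS SCR. The total recovered count of a sample lay between 641790 and 1081646. The AKT Cre/NRAS SCR samples stood apart from the rest in the log2 ratio of *Rpl19*, a ribosomal protein gene, to *Polr2a*, the large subunit of RNA polymerase II. It was 5.48, 6.36 and 6.88 in their replicates 1, 2 and 3, against 4.72 to 5.03 in AKT Cre/NRAS siRNA and 3.81 to 3.92 in both AKT/NRAS groups. Markers of other cell types were at or near the floor for leukocytes, of which 6 of 7 measured markers were at the floor in all 12 samples. The endothelial pair had *Kdr* at the floor throughout and *Flt1* above it, and 3 of 5 fibroblast and stellate markers were at the floor in all samples. Of the 8 measured hepatocyte and progenitor markers, 7 were above the floor in every AKT/NRAS sample and 8 in every AKT Cre/NRAS sample. Their summed level ran from 31150 to 35821 normalized counts in AKT/NRAS and from 111185 to 167583 in AKT Cre/NRAS. The summed level of the endothelial markers ran from 960 to 1430 normalized counts in AKT/NRAS and from 266 to 522 in AKT Cre/NRAS, that of the fibroblast and stellate markers from 142 to 186 and from 350 to 594, and their part in the results was not tested.

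Between the lines, the family did not move as one. In AKT Cre/NRAS, *Bcl2* was lower, *Bcl2l1* and *Bax* were higher and *Bid* was lower than in AKT/NRAS, both under SCR and under *Dusp4* siRNA, whereas *Bad* did not pass the test in either comparison. Under SCR, 4 of the 5 members were called, against 76.9% of the 515 genes tested. The members called higher were 2 of 5 (28.9% of all genes) and those called lower were 2 of 5 (48.0% of all genes). In 4 of 5 members the groups did not overlap, as in 79.8% of all genes. Under siRNA, 4 of 5 members were called against 74.5% of 522 genes, with 2 of 5 higher (36.6% of all genes) and 2 of 5 lower (37.9%), and 4 of 5 did not overlap (76.6% of all genes). The share of members that differed was thus close to that of the panel, and the median difference of the 5 members, 0.20 under SCR and -0.15 under siRNA, stood beside panel medians of -0.22 and -0.00053 (log2). Each group entered 1 comparison of the lines and 1 of the treatments, so the comparisons share samples. Under SCR the panel leaned to lower calls, 149 higher and 247 lower, but to higher calls in the values as deposited (202 and 99) and after re-centring on the sample median (224 and 181). It leaned further to lower calls with 10, 5 or within-comparison reference genes (97 and 281, 69 and 256, 59 and 259).

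**Figure D1:**
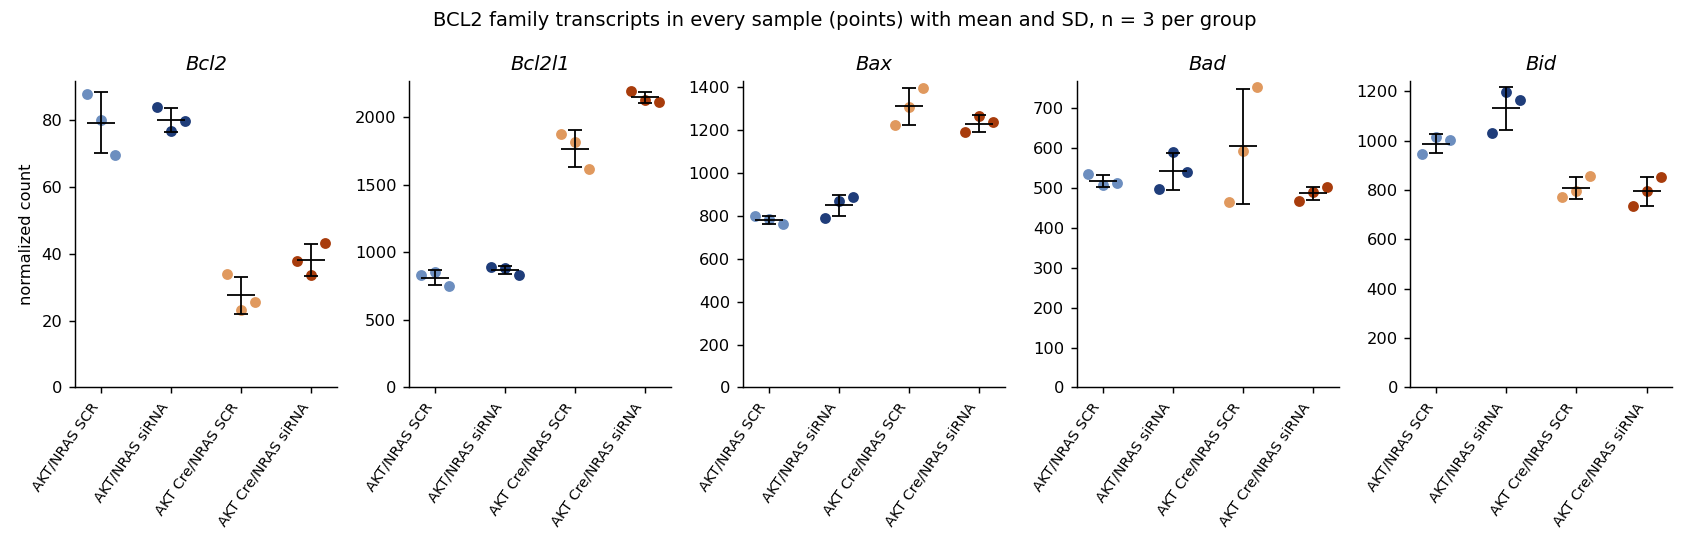
Normalized counts (y axes, linear, from 0) of the 5 transcripts in each of the 12 samples, by group on the x axes. Points are samples, and bars are the mean and SD of 3. *Bcl2* is low in both AKT Cre/NRAS groups, *Bcl2l1* and *Bax* are high there, *Bid* is highest in AKT/NRAS siRNA, and *Bad* spreads from 466 to 754 in AKT Cre/NRAS SCR. *Bcl2* is drawn without the common floor of 27.1.

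*Bcl2*, the founding anti-apoptotic member, had the lowest counts of the 5. It read 87.9, 80.0 and 69.6 normalized counts in AKT/NRAS SCR and 83.8, 76.6 and 79.8 in AKT/NRAS siRNA. In AKT Cre/NRAS it read 33.9, 23.3 and 25.6 under SCR and 37.9, 33.6 and 43.1 under siRNA. Every AKT Cre/NRAS sample lay below every AKT/NRAS sample. The 2 lowest AKT Cre/NRAS SCR samples rested on 26 and 23 counts (95% exact Poisson intervals 17.0 to 38.1 and 14.6 to 34.5, which cover counting error only), and both were raised to the common floor of 27.1 in the test. The difference between the lines was -1.40 under SCR (SE 0.129, limma adjusted p = 1.5e-05), a 2.64-fold lower level with these 2 samples at that floor, and -1.50 with the values left below it. Under siRNA the difference was -1.05 (SE 0.098, limma adjusted p = 4.0e-05), a 2.08-fold lower level. *Bcl2* was called lower under both treatments in all 8 scalings, the reported one and 7 others, with values from -1.58 to -1.0 under SCR.

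*Bcl2l1*, which encodes BCL-XL, moved the other way. Its normalized counts were 836, 858 and 749 in AKT/NRAS SCR and 892, 882 and 834 in AKT/NRAS siRNA. They were 1875, 1815 and 1619 in AKT Cre/NRAS SCR and 2197, 2133 and 2114 in AKT Cre/NRAS siRNA. The lowest AKT Cre/NRAS sample was well above the highest AKT/NRAS sample. *Bcl2l1* was 2.17-fold higher in AKT Cre/NRAS under SCR (log2 1.12, SE 0.088, limma adjusted p = 6.2e-06) and 2.47-fold higher under siRNA (log2 1.30, SE 0.038, limma adjusted p = 7.3e-08). The 4 group means, in rising order, were 814 ± 57.3 in AKT/NRAS SCR, 869 ± 31.0 in AKT/NRAS siRNA, 1770 ± 134 in AKT Cre/NRAS SCR and 2148 ± 43.5 in AKT Cre/NRAS siRNA (SD, n = 3). The first pair of neighbours in that order overlapped and did not pass the test, the middle pair did not overlap and was not tested, and the last pair passed. Under SCR the line difference was called in 7 of 8 scalings, and with reference genes chosen within the comparison it was 0.60 (limma adjusted p = 0.0983).

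*Bax*, the pore-forming effector, was also higher in the line without the AKT construct. It read 798, 785 and 761 normalized counts in AKT/NRAS SCR and 791, 866 and 885 in AKT/NRAS siRNA. AKT Cre/NRAS gave 1223, 1307 and 1395 under SCR and 1187, 1263 and 1233 under siRNA. The lines did not overlap, but within each line the siRNA and SCR samples did. *Bax* was 1.67-fold higher in AKT Cre/NRAS under SCR (log2 0.74, SE 0.076, limma adjusted p = 3.0e-05) and 1.45-fold higher under siRNA (log2 0.54, SE 0.052, limma adjusted p = 4.9e-05). Its difference under SCR kept its direction in all 8 scalings and was called in 6 of them, and it was 0.32 with 5 reference genes and 0.22 with those chosen within the comparison.

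*Bcl2l1* and *Bax* were the members higher in AKT Cre/NRAS, and the 250 bases before their starts are shown for that reason, from the RefSeq promoter table on GRCm38.p6 (both on the minus strand, 5′ to 3′). Motifs searched on both strands are in capitals, namely the E-box CACGTG, the ETS core GGAAGT, the GC box GGGCGG, the FOXO letters GTAAACA and the AP-1 letters TGANTCA. These are letters read in a window and not binding sites. *Bcl2l1* has 3 listed starts, and the middle window is shown because it alone held one of the motifs.
Bcl2l1, chr2:152830718-152830967: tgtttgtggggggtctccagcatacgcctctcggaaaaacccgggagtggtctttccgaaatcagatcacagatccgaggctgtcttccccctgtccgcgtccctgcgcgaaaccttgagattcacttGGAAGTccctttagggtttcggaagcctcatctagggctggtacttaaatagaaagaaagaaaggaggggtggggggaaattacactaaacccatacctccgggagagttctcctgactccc
Bax, chr7:45466899-45467148: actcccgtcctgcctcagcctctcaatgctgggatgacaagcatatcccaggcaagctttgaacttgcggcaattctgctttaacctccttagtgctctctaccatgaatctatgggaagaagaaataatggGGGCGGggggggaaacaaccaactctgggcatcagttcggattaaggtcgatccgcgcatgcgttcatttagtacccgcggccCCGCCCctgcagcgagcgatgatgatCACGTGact
The *Bax* window held 1 E-box, within a few bases of the start, and 2 GC boxes, whereas the *Bcl2l1* window held 1 ETS core. An E-box stood in 6.02% of the 32851 windows of the same length in the table, an ETS core in 19.7% and a GC box in 32.7%. These shares are for single windows, whereas the *Bcl2l1* window was picked from 3 for its motif. The members that were lower or did not pass between the lines had GC boxes too, 7 in the *Bcl2* window, 3 in the *Bid* window and 3 in the first *Bad* window, and the *Bad* windows held 3 ETS cores in all. The FOXO and AP-1 letters, found in 3.17% and 6.75% of all windows, were in none of the 8 windows of the members.

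Of the BH3-only members, *Bid* was lower in AKT Cre/NRAS, and *Bad* passed the test under neither treatment in the reported scaling. *Bid* stood at 946, 1015 and 1005 normalized counts in AKT/NRAS SCR and 1032, 1195 and 1164 in AKT/NRAS siRNA. It stood at 771, 798 and 855 in AKT Cre/NRAS SCR and at 734, 797 and 853 in AKT Cre/NRAS siRNA, below every AKT/NRAS sample. The difference was -0.29 under SCR (SE 0.075, limma adjusted p = 0.0070) and -0.51 under siRNA (SE 0.075, limma adjusted p = 0.00054). Under SCR the call and the sign depended on the scaling, with 0.22 in the values as deposited, 0.067 after re-centring on the sample median and 4 of 8 scalings calling it lower, while all 8 called it lower under siRNA.

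The transcript of *Bad*, whose protein is a direct AKT substrate, gave 534, 508 and 512 normalized counts in AKT/NRAS SCR and 497, 589 and 541 in AKT/NRAS siRNA. In AKT Cre/NRAS it gave 466, 594 and 754 under SCR and 469, 489 and 502 under siRNA. The AKT Cre/NRAS SCR samples ranged so widely (SD 144, n = 3) that they spanned the values of the other 3 groups. The sample with 754 had the highest *Rpl19* to *Polr2a* ratio of the series, 6.88, and the sample with 466 the lowest of its group, 5.48, and the part of this in the result was not tested. The lines differed by 0.20 under SCR (95% interval -0.17 to 0.56, limma adjusted p = 0.280) and by -0.15 under siRNA (95% interval -0.32 to 0.012, limma adjusted p = 0.0845). The call depended on the scaling. *Bad* was called higher under SCR in 3 of 8 scalings, with values from -0.33 to 0.70. Under siRNA it was called lower in 3 of 8. Without AKT Cre/NRAS SCR replicate 1, the value of 466, the difference under SCR was 0.37 and passed (limma adjusted p = 0.0118). Without AKT/NRAS siRNA replicate 1 the difference under siRNA was -0.22 and also passed (limma adjusted p = 0.0204).

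**Figure D2:**
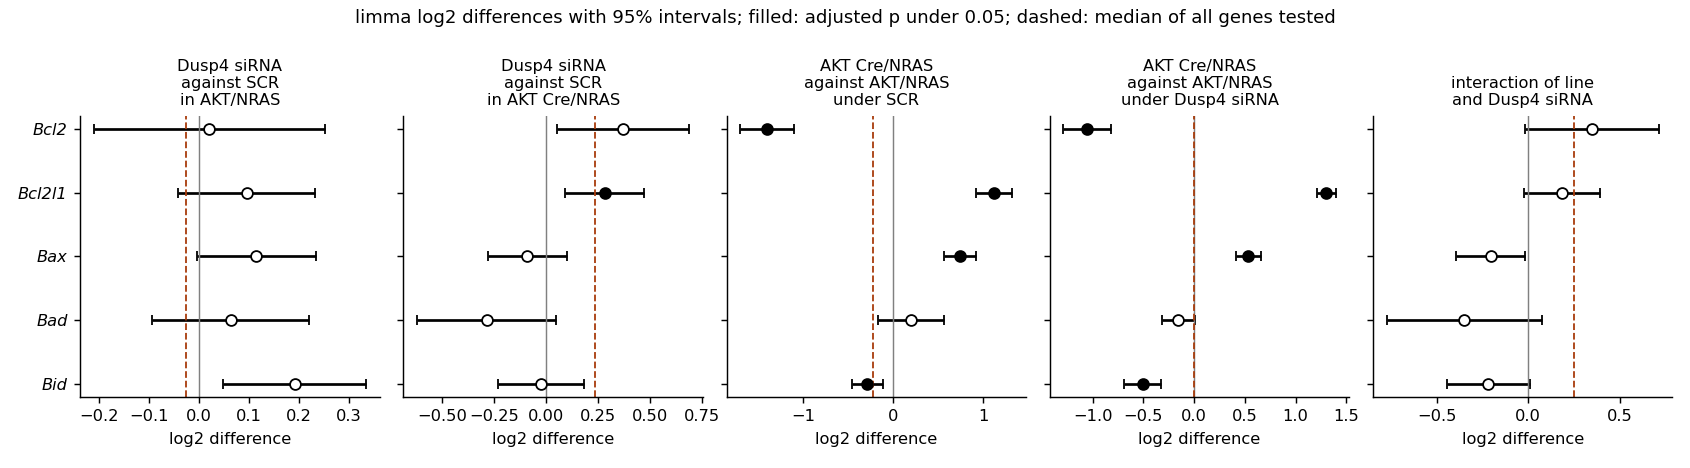
Log2 differences (x axes) of the 5 members in the 5 comparisons, from limma, with 95% intervals. Filled circles passed an adjusted p of 0.05, the dashed line is the median of all genes tested, and the x axes differ in scale. The members spread to both sides of 0 between the lines, from -1.40 to 1.12 under SCR, and lie within 0.37 of 0 after *Dusp4* siRNA.

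After *Dusp4* silencing the 5 transcripts were followed within each line. In AKT/NRAS none of the 5 members passed the test, against 17.3% of 496 genes tested, and without adjustment 1 member, *Bid*, and 151 of all genes had a p under 0.05. *Bid* was 1.14-fold higher after siRNA (log2 0.19, SE 0.061, limma adjusted p = 0.0727), and its siRNA samples, from 1032 upwards, did not overlap the SCR samples, which ended at 1015. Groups did not overlap in 1 of 5 members and in 34.7% of all genes. In all, 5 of the 8 scalings called *Bid* higher, as did the fit without AKT/NRAS siRNA replicate 1 (0.26, limma adjusted p = 0.0114), in which *Bax* passed too (0.16, limma adjusted p = 0.0412). The other 4 members lay between 0.021 for *Bcl2* and 0.12 for *Bax*, with 95% intervals that reached no higher than 0.25. The median of the 5 was 0.096 beside a panel median of -0.025 (log2). The panel had 27 genes called higher and 59 lower here, against 287 and 3 in the values as deposited, 47 and 41 after re-centring, 46 and 39 under quantile normalization, and 18 and 87 or 22 and 88 with 10 or 5 reference genes.

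For AKT Cre/NRAS, 1 of 5 members passed after siRNA, against 45.9% of 503 genes. This was *Bcl2l1*, 1.22-fold higher after siRNA (log2 0.28, SE 0.086, limma adjusted p = 0.0241). The SCR samples ended at 1875 normalized counts and the siRNA samples began at 2114, so they did not overlap, which held for 1 of 5 members and for 60.0% of all genes. The panel median of this comparison was 0.23, and 53.9% of the genes tested had a larger absolute difference than *Bcl2l1*. The call was lost without AKT Cre/NRAS SCR replicate 2 or any single siRNA replicate (limma adjusted p from 0.0659 to 0.0919), while the difference itself stayed between 0.22 and 0.33 with any 1 sample left out. It also depended on the scaling, and 4 of 8 scalings called it. After re-centring on the sample median of the genes above the floor in all 12 samples, *Bcl2l1* was at -0.073 (limma adjusted p = 0.316). The panel median of the genes tested was then -0.098. The panel itself had 204 genes called higher and 27 lower, against 32 and 136 after re-centring, 52 and 38 under quantile normalization, 0 and 1 in the values as deposited, and 252 and 4 or 254 and 1 with 10 or 5 reference genes.

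*Bcl2* was 1.29-fold higher after siRNA in AKT Cre/NRAS at the common floor (log2 0.37, SE 0.143, limma adjusted p = 0.0547), and its groups overlapped only at 33.9 under SCR and 33.6 under siRNA. Without SCR replicate 1, the sample with 33.9, it was 0.47 and passed (limma adjusted p = 0.0231). *Bax* differed by -0.090 (95% interval -0.28 to 0.098, limma adjusted p = 0.408) and *Bid* by -0.025 (95% interval -0.23 to 0.18, limma adjusted p = 0.844). *Bad* differed by -0.29 (SE 0.151, limma adjusted p = 0.140), and here the replicate block changed the call. Same-numbered SCR and siRNA samples of this line deviated together, and with the replicate as a block *Bad* passed (SE 0.112, limma adjusted p = 0.0373), so that 2 of 5 members were called. Without SCR replicate 3, the sample with the highest *Rpl19* to *Polr2a* ratio, the *Bad* difference was -0.11 (limma adjusted p = 0.415), and without SCR replicate 1 it was -0.46 (limma adjusted p = 0.0077). The median of the 5 members was -0.025, beside the panel median of 0.23.

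**Figure D3:**
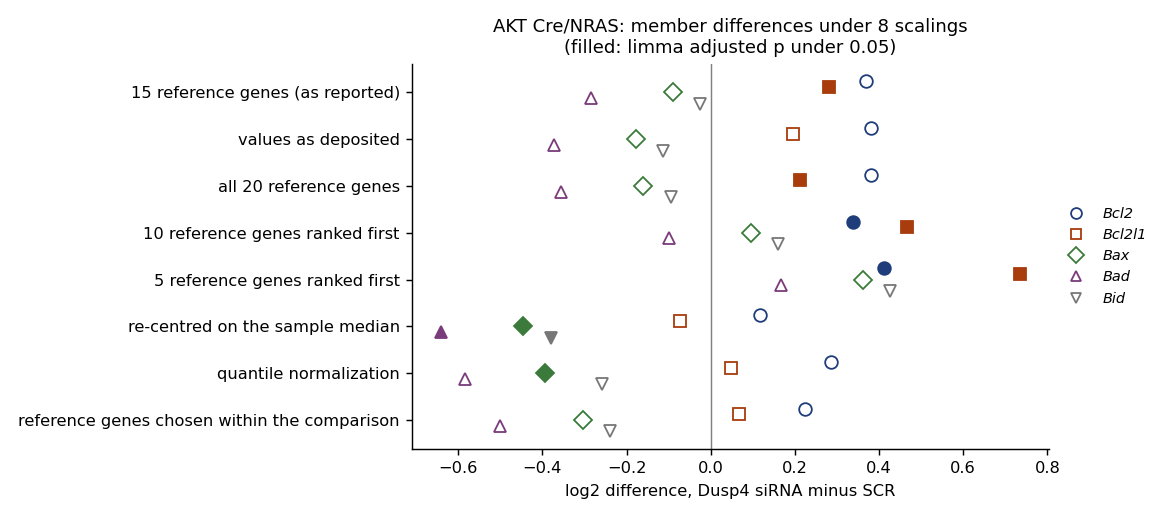
Log2 difference of each member between *Dusp4* siRNA and SCR in AKT Cre/NRAS (x axis) under 8 scalings (y axis). Filled symbols passed a limma adjusted p of 0.05. *Bcl2l1* moves from -0.073 to 0.73 with the scaling, while it stays to the right of *Bax*, *Bad* and *Bid*. All scalings but quantile normalization multiply each sample by 1 factor, which fixes that order in advance. Quantile normalization could change the order and kept it.

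Whether *Dusp4* siRNA acted differently in the lines was tested as the interaction, the siRNA difference in AKT Cre/NRAS minus that in AKT/NRAS. *Dusp4* itself went from 1228 to 370 normalized counts in AKT/NRAS and from 5556 to 4023 in AKT Cre/NRAS. The line and the depth of silencing therefore cannot be told apart in this term. None of the 5 members passed, against 45.3% of 525 genes, and without adjustment 1 member, *Bax*, and 288 of all genes had a p under 0.05. The panel had 213 positive and 25 negative calls, against 50 and 151 after re-centring, 98 and 92 under quantile normalization, 2 and 30 in the values as deposited, and 305 and 1 with 5 reference genes. The anti-apoptotic members had positive terms, 0.35 for *Bcl2* (95% interval -0.017 to 0.71, limma adjusted p = 0.105) and 0.19 for *Bcl2l1* (-0.022 to 0.39, limma adjusted p = 0.125). The pro-apoptotic members had negative terms, -0.21 for *Bax* (-0.39 to -0.017, limma adjusted p = 0.0691), -0.35 for *Bad* (-0.77 to 0.075, limma adjusted p = 0.154) and -0.22 for *Bid* (-0.44 to 0.011, limma adjusted p = 0.105). These signs depended on the scaling. *Bcl2l1* was negative as deposited (-0.24), after re-centring (-0.23) and under quantile normalization (-0.14), *Bax* and *Bid* were positive with 10 or 5 reference genes, and *Bad* was positive with 5. After re-centring 4 members were called, all negative, and with 5 reference genes 2 were called, both positive. With the replicate as a block, *Bcl2l1* and *Bid* passed (limma adjusted p = 0.0471 and 0.0293). Without AKT Cre/NRAS SCR replicate 1, 3 members passed (*Bcl2*, *Bax* and *Bad*), and without AKT/NRAS siRNA replicate 1, *Bax* and *Bid* passed.

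A ratio of 2 members within a sample does not change with the factor of that sample, so ratios show the balance free of the choice of reference genes. They carry no test here, and a ratio says nothing on which protein was in excess. The log2 ratio of *Bcl2l1* to *Bax* was 0.07, 0.13 and -0.02 in AKT/NRAS SCR and 0.17, 0.03 and -0.09 in AKT/NRAS siRNA. It was 0.62, 0.47 and 0.21 in AKT Cre/NRAS SCR and 0.89, 0.76 and 0.78 in AKT Cre/NRAS siRNA. Between siRNA and SCR the ratio differed by -0.019 in AKT/NRAS, with overlap. In AKT Cre/NRAS the siRNA samples all lay above the SCR samples, by 0.37 or 1.29-fold. With any 1 sample left out, that difference stayed between 0.26 and 0.46. *Dusp4* itself fell less in AKT Cre/NRAS in the reported scaling, so line and depth of silencing cannot be told apart here either. In AKT Cre/NRAS SCR this ratio fell from replicate 1 to replicate 3 as the log2 ratio of *Rpl19* to *Polr2a* rose, at 5.48, 6.36 and 6.88. The siRNA samples of the line lay below these, from 4.72 to 5.03. Treatment and the *Rpl19* to *Polr2a* ratio thus cannot be told apart in this line, and the part of the latter was not tested.

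The ratio of *Bcl2l1* to *Bad* behaved alike in AKT Cre/NRAS, with 2.01, 1.61 and 1.10 under SCR and 2.23, 2.12 and 2.07 under siRNA. Its difference of 0.57 ranged from 0.33 to 0.78 with 1 sample left out. For *Bcl2l1* to *Bid* the values were 1.28, 1.19 and 0.92 under SCR and 1.58, 1.42 and 1.31 under siRNA, a difference of 0.31 without overlap. In AKT/NRAS these 2 ratios overlapped between treatments, with differences of 0.032 and -0.096. All 3 ratios of *Bcl2l1* to a pro-apoptotic member were thus higher after siRNA in AKT Cre/NRAS, and they share *Bcl2l1*, so they are not separate observations. Under SCR in this line, all 3 also fell from replicate 1 to replicate 3 as the *Rpl19* to *Polr2a* ratio rose. *Bcl2l1* itself, at 0.28, stood near the panel median of 0.23, whereas *Bax*, *Bad* and *Bid* stood below it at -0.090, -0.29 and -0.025. In this comparison 60.0% of single genes did not overlap, and the share among ratios of other genes was not computed.

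**Figure D4:**
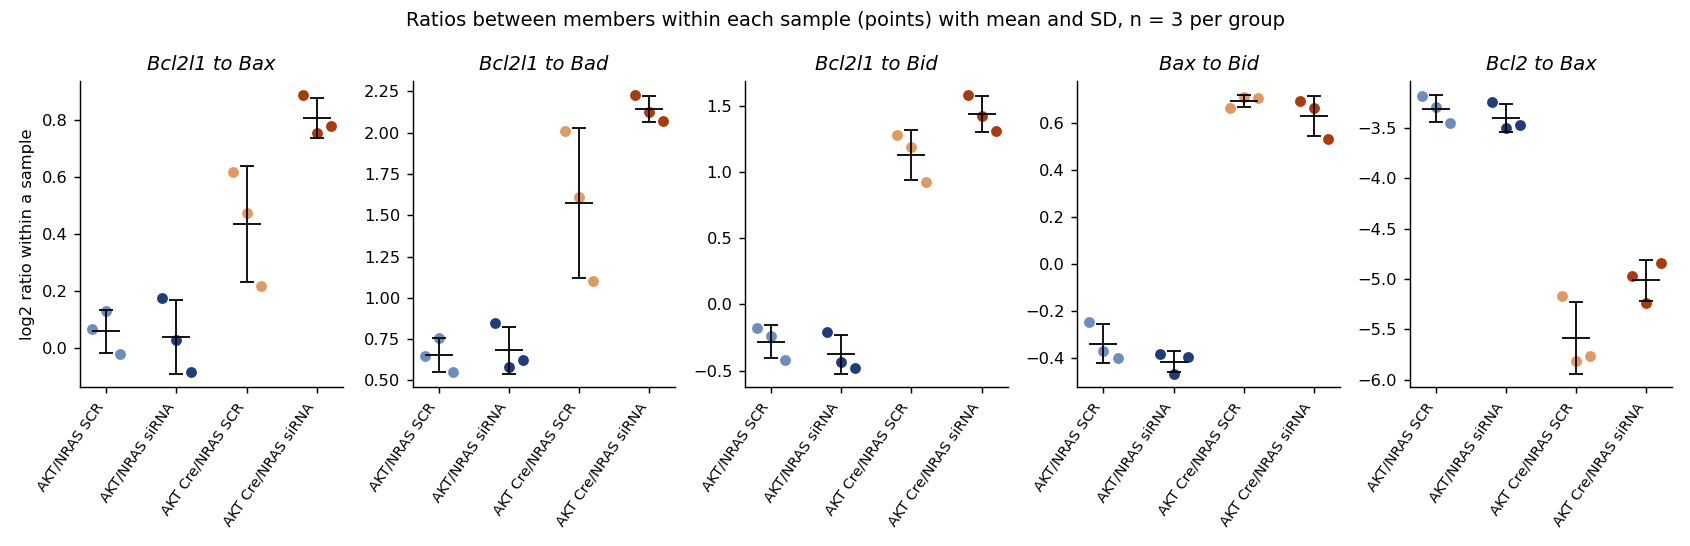
Log2 ratios between members within each sample (y axes) by group (x axes), with the mean and SD of 3. The 3 ratios with *Bcl2l1* on top are highest in AKT Cre/NRAS siRNA, *Bax* to *Bid* separates the lines but not the treatments, and *Bcl2* to *Bax* is lowest in AKT Cre/NRAS SCR, at -5.58 on average.

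The pro-apoptotic pair *Bax* and *Bid* separated the lines under both treatments. Their log2 ratio lay between -0.47 and -0.25 in the 6 AKT/NRAS samples and between 0.53 and 0.71 in the 6 AKT Cre/NRAS samples. The lines differed by 1.03 under SCR and 1.04 under siRNA, and *Dusp4* siRNA moved the ratio by -0.076 and -0.065 in the lines, with overlap in both. *Bcl2* to *Bax* read -3.18, -3.29 and -3.45 in AKT/NRAS SCR and -5.17, -5.81 and -5.77 in AKT Cre/NRAS SCR, without the common floor. It was lower in AKT Cre/NRAS by 2.27 on average under SCR and by 1.61 under siRNA. *Bcl2* and *Bcl2l1*, both anti-apoptotic, diverged between the lines, and the log2 ratio of *Bcl2* to *Bcl2l1* went from -3.37 ± 0.10 in AKT/NRAS SCR to -6.02 ± 0.25 in AKT Cre/NRAS SCR (SD, n = 3).

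The members also differed in which other genes they followed. As a description over the 12 samples, the genes nearest to each member were taken by the root mean square difference of log2 levels after centring each gene, among the 453 other genes above the floor in all samples. Nearest to *Bcl2l1* was *Dusp6*, a cytoplasmic ERK phosphatase (0.078), then *Itga3*, an integrin subunit (0.106), and *Hhex*, a liver transcription factor (0.122), over a *Bcl2l1* range of 1.55. *Bax* lay nearest to *Pold4*, a DNA polymerase delta subunit (0.059), to *Mdm2*, the p53 ubiquitin ligase (0.096), and to *Il1r1*, the interleukin 1 receptor (0.10). Near *Bid* lay the splicing factor *Srsf2* (0.081) and the phosphatase *Cdc14b* (0.094). Near *Bcl2* lay *Irak3*, a brake on Toll-like receptor signalling (0.129), and *Sos1*, a RAS exchange factor (0.136). *Bad* lay nearest to *Nubp1* (0.102), *Polr2j* (0.112) and *Oaz1* (0.113), of which *Nubp1* and *Oaz1* are among the 15 reference genes of the scaling. Among themselves the members ran from 0.264 between *Bad* and *Bid* to 1.27 between *Bcl2* and *Bcl2l1*. The genes named above were picked as the closest of the 453, so they are nearer by choice. By rank of distance among the 453, *Bax* was at 43 from *Bcl2l1*, *Bid* at 68 from *Bad* and *Bcl2l1* at 411 from *Bcl2*. The 12 points share their group and line, and no test was made of these distances.

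Around the family, other genes of the pathway were followed from lists that name each step. Of 14 other BCL2 family genes listed, 2 were measured, and *Bcl2a1a* was at the floor throughout. For every list below, counts are of genes past the threshold, to be read against the share of all genes called in the comparison (17.3% and 45.9% after siRNA in AKT/NRAS and AKT Cre/NRAS, 76.9% and 74.5% between the lines, 45.3% in the interaction), and medians stand beside the panel medians of -0.025, 0.23, -0.22, -0.00053 and 0.25 for siRNA in AKT/NRAS, siRNA in AKT Cre/NRAS, the lines under SCR, the lines under siRNA and the interaction. *Bnip3*, a hypoxia-induced BH3-only-like protein of mitophagy, fell with *Dusp4* siRNA in both lines, by 0.34 in AKT/NRAS (SE 0.055, limma adjusted p = 0.0082) and by 0.57 in AKT Cre/NRAS (SE 0.168, limma adjusted p = 0.0216). It was higher in AKT Cre/NRAS by 0.91 under SCR (limma adjusted p = 0.0017) and by 0.68 under siRNA. Its fall was called in 7 of 8 scalings in AKT/NRAS, with -0.0054 in the values as deposited, and in 4 of 8 in AKT Cre/NRAS, with -0.083 under quantile normalization.

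Downstream of the mitochondria, all 6 tested genes of the caspase and inhibitor list (7 measured of 17) differed between the lines under both treatments, 4 higher and 2 lower, with medians of 0.52 and 0.53, where 76.9% of all genes tested were called under SCR and 74.5% under siRNA. Under SCR, *Endog*, a mitochondrial nuclease, was higher by 0.92 and *Casp12* by 1.27, and *Casp9*, the initiator that the apoptosome activates, was lower at -1.60. Under SCR the other scalings called fewer of the 6, and with 5 or within-comparison reference genes 1 was higher and 2 lower. After *Dusp4* siRNA none of the 6 passed in AKT/NRAS, and in AKT Cre/NRAS only *Casp9* did, higher by 0.43 (SE 0.138, limma adjusted p = 0.0289). Medians after siRNA were 0.017 and 0.032 in the lines, with 4 genes called higher in AKT/NRAS in the values as deposited and 3 called lower in AKT Cre/NRAS after re-centring. *Casp9* was also the 1 gene of the list that passed the interaction, at 0.59 (SE 0.189, limma adjusted p = 0.0278). The siRNA difference of *Casp9* in AKT Cre/NRAS was called in 3 of 8 scalings, from 0.082 to 0.88, and its interaction in 4 of 7.

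In the death receptor arm upstream of *Bid*, 4 of 6 measured genes were tested between the lines, and 2 were higher and 1 lower in AKT Cre/NRAS under both treatments (medians 0.26 and 0.48). *Fas* was higher by 1.53 under SCR and 0.94 under siRNA, and *Tnfrsf10b*, the murine TRAIL receptor, by 0.54 and 0.88. *Tnf* was lower, with -0.35 and -0.71, called under SCR in 5 of 8 scalings. It was at the common floor in every AKT Cre/NRAS sample and was tested only through its AKT/NRAS values. Both differences are therefore bounds set by that floor. *Casp8*, the caspase that cleaves BID, did not pass (-0.019 and 0.069). *Bid* itself was thus lower in the line in which *Fas* was higher. After siRNA, none of 4 passed in AKT/NRAS and 1 of 3 in AKT Cre/NRAS, where *Tnfrsf10b* rose by 0.35 (SE 0.113, limma adjusted p = 0.0295), with a value of -0.0023 after re-centring. Medians after siRNA were 0.16 and 0.11, and the interaction passed for none of 4 (median -0.14).

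Kinases and phosphatases known to act on BAD were the list with *Akt1*. Of 13 tested between the lines under SCR, 2 were higher and 8 lower in AKT Cre/NRAS (median -0.30), and under siRNA 2 were higher and 5 lower (median -0.077). Beside *Akt1*, at -5.68 under SCR, *Ppp3ca*, a calcineurin subunit, was at -1.34 and *Prkaca*, a catalytic subunit of PKA, at -1.01, and all 3 were lower in each of the 8 scalings. The counts under SCR were 4 higher and 3 lower in the values as deposited. After *Dusp4* siRNA, 5 of 13 were higher and 1 lower in AKT Cre/NRAS (median 0.17), with *Prkacb* at 0.56, *Akt1* at 0.52, *Prkar2a* at 0.51 and *Prkaca* at 0.48, whereas after re-centring none was higher and 4 were lower. In AKT/NRAS 3 of 12 were lower (median -0.067), among them *Akt1* at -0.11, whereas in the values as deposited 7 were higher and none lower. The interaction passed for 8 of 13, 7 of them positive (median 0.22), and after re-centring for 4, all negative.

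The p53 list was included because *Bax* is a p53 target. Under SCR, AKT Cre/NRAS had higher levels for 3 of the 12 genes tested and lower ones for 4 (median -0.094), with *Mdm2* higher by 0.75, close to the 0.74 of *Bax*, and *Gadd45b*, *Cdkn1a* and *Atr* at -2.68, -0.70 and -0.68. Under siRNA, 3 were higher and 3 lower (median -0.020), with *Mdm2* at 0.69 and *Gadd45b* at -2.67. The direction of the list depended on the scaling, and under SCR the values as deposited gave 5 higher and 1 lower. *Cdkn1a*, the cell cycle inhibitor p21, differed by -0.36 after siRNA in AKT/NRAS and by 0.41 in AKT Cre/NRAS, and its interaction of 0.77 passed (SE 0.186, limma adjusted p = 0.0081), as in 5 of 7 scalings, while its siRNA difference in AKT Cre/NRAS was called in 3 of 8. *Trp53* was higher after siRNA in both lines, by 0.19 and 0.44. The list had 1 gene higher and 2 lower after siRNA in AKT/NRAS (median 0.010) and 3 higher and 1 lower in AKT Cre/NRAS (median -0.071), where re-centring gave none higher and 7 lower. *Bax* passed in neither line.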

How the data were processed

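RNA of 12 samples (4 groups of 3) was hybridised to the nCounter® Mouse PanCancer Pathways panel, and the authors processed the scans in nSolver. What the authors deposited is, per gene, a signal equal to the barcode count times a positive control factor of each sample (0.827 to 1.27), with anything at or under 20 set to 20. Dividing by that factor gave whole counts, within 0.1, for 100% of the low values above the floor, and since 252 to 293 genes per sample were at it, no count model was fitted.

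Values were scaled to 15 of the 20 last genes of the table, chosen by geNorm over all samples, raised to a common floor of 27.1 and tested as log2(value + 1) with limma (version 3.58.1, R version 4.3.3) through lmFit and trended eBayes, adjusting by Benjamini-Hochberg over genes above the floor in at least 1 sample of the comparison. Fold changes are on that scale. With 3 against 3 no exact permutation test goes below p = 0.1. The fits were tested on simulated data. Same-numbered SCR and siRNA samples correlated at 0.21, 0.17 and 0.21 in AKT Cre/NRAS (deviations from group means over genes), and the highest of the other pairs was 0.019. No label says what a number shares. The *Rpl19* to *Polr2a* ratio rose with the number in both groups, and whether numbers mark paired samples was not tested.

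The members and gene lists were chosen with earlier results of these data known. Named were every member, *Dusp4*, *Akt1*, *Rpl19* and *Polr2a*, up to 4 genes with the smallest p per list and comparison, and the 3 genes nearest to each member. Some genes that this rule names are not reported here. *Kdr* and *Bcl2a1a*, both at the floor, and *Flt1* were named after their values were seen. Alternatives covered the scaling, pseudocount, filter, adjustment, variance model, replicate block and each sample left out.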

Additional observations from a re-analysis of the deposited data

How the results depend on the processing

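Of 567 values of single members under the alternatives, 473 kept their direction and side of the threshold, 54 passed where they had not, 15 no longer passed and 25 changed sign. The cause was not tested where a call changed. In AKT/NRAS the members changed by siRNA, 0 as reported, were 5 in the values as deposited, in which the panel median was 0.30, 1 with all 20 reference genes, re-centring, quantile normalization, reference genes chosen within the comparison, genes above the floor in every sample, the replicate block or no common floor (the last chosen after seeing the data), and 0 to 2 with 1 sample left out. In AKT Cre/NRAS, 1 as reported (*Bcl2l1*, higher), and 1 under quantile normalization (*Bax*, lower), they were 0 in the values as deposited, with reference genes chosen within the comparison, without a filter, with Benjamini-Yekutieli adjustment or with an ordinary linear model, 2 with 10 or 5 reference genes (both higher), 1 fit over all 4 groups, no trend, the replicate block or no common floor, 3 after re-centring (all lower), and 0 to 3 with 1 sample left out. Between the lines under SCR, 4 as reported (2 higher, 2 lower) became 2, both lower, with reference genes chosen within the comparison. They were 2 higher and 1 lower with all 20 reference genes, and 1 higher and 2 lower with 5. As deposited, re-centred and under quantile normalization they were 3 higher and 1 lower. Under siRNA, 2 higher and 2 lower became 2 higher and 3 lower with 10 or within-comparison reference genes and after re-centring. The interaction, 0 as reported, gave 1 with all 20 or 10 reference genes or no common floor, 2 with 5 or with the replicate block, 4 re-centred and 3 under quantile normalization (all negative), and 0 to 3 with 1 sample left out. Same-numbered samples did not stand out by correlation in AKT/NRAS or between the lines under SCR. Between the lines under siRNA, same-numbered samples correlated at 0.23, 0.059 and 0.21, and the highest of the other pairs was 0.018. Outside AKT Cre/NRAS siRNA, the block called *Bid* in AKT/NRAS (limma adjusted p = 0.0358) and *Bad* between the lines under siRNA (0.0457). It also called *Bcl2l1* and *Bid* in the interaction (0.0471 and 0.0293), and changed no other call. Signs changed for *Bcl2* in AKT/NRAS with 10 and 5 reference genes (-0.015 and -0.0097) and from -0.067 to 0.099 with 1 sample left out. In AKT Cre/NRAS, with 10 and 5 reference genes, *Bax* was 0.095 and 0.36 and *Bid* 0.16 and 0.43, *Bad* was 0.17 with 5, *Bcl2l1* was -0.073 re-centred, and *Bid* ran from -0.077 to 0.031 with 1 sample left out. Under SCR between the lines, *Bid* was 0.22 as deposited and 0.067 re-centred, and *Bad* was -0.083, -0.22 and -0.33 with 10, 5 and within-comparison reference genes. In the interaction, *Bcl2l1* was -0.24 as deposited, -0.23 re-centred and -0.14 under quantile normalization, *Bax* was 0.016 and 0.28 and *Bid* 0.0047 and 0.27 with 10 and 5 reference genes, and *Bad* was 0.13 with 5. The panel median moved with the scaling from -0.098 to 0.67 in AKT Cre/NRAS and from -0.72 to 0.25 between the lines under SCR. *Bcl2*, at 23 to 93 counts, was the member most limited by depth.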
